A study of Homo sapiens with 18 samples.

Results

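Mucins were examined as 10 genes picked by symbol from the 40266 gene symbols of the table: *MUC1*, *MUC3A*, *MUC4*, *MUC13*, *MUC15*, *MUC16* and *MUC20*, which encode membrane-bound mucins, and *MUC2*, *MUC5AC* and *MUC5B*, which encode secreted, gel-forming mucins. The data are RNA-seq libraries of 2 human pancreatic ductal adenocarcinoma (PDAC) lines, Panc1 from a primary tumor and Panc89 from a lymph node metastasis, which the study uses as mesenchymal-like and epithelial models. Each line was present as untreated parental cells, as Holoclone cells, which form tight colonies and stand for cancer stem cells (CSCs), and as Paraclone cells, which form loose colonies and stand for non-CSCs. Each of the 6 groups held 3 replicates, 18 libraries in all. Holo- and Paraclone cells were grown from single cells of their parental line, and the study names 1 clone of each kind per line. The replicates are 3 passages of each cell variant, so their spread covers passages of a culture and not independently isolated clones. Differences between Holoclone and Paraclone cells thus compare 1 clone with another. The kind of clone and the single clone that stands for it cannot be told apart. Levels are given in TPM, a measure of transcript abundance corrected for transcript length and library size, and fold changes on the scale of log2(TPM + 1). On this scale, changes of genes that are near 0 in 1 or both groups appear smaller than they are in TPM. Differences were tested with limma-trend on the 16093 genes that reached 1 TPM in 3 or more libraries, and a gene is called where its Benjamini-Hochberg adjusted p is under 0.05. Of the 10 mucin genes, 9 passed this filter and *MUC15* did not.

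Mucins are very large glycoproteins whose repeated stretches of serine, threonine and proline carry dense O-linked sugars. Gel-forming mucins are stored in granules, released and cross-linked into mucus, whereas membrane-bound mucins stay anchored in the apical surface, where they form a barrier and can take part in signalling. The normal pancreatic duct makes membrane-bound *MUC1*, and gain of *MUC4*, *MUC16* and *MUC5AC* is a known feature of PDAC and its precursors.

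The DNA just before the start of each gene is shown for the 6 mucin genes that have a RefSeq promoter entry, so that their control regions can be compared with their levels. Each sequence is the 120 bases before the RefSeq start on GRCh38.p14, written 5′ to 3′ on the strand of the gene, with capitals for motifs on either strand. Capitals mark TATAA, the core element where transcription machinery can assemble close to a start. They also mark GGGCGG, which factors of the SP family can bind. Further marks are for CCAAT, an element of many promoters known to bind the factor NF-Y. The last marked motif is CACCTG, an element that repressors such as ZEB1 and SNAI1 can bind.
MUC1 (chr1:155192916-155193035, minus strand): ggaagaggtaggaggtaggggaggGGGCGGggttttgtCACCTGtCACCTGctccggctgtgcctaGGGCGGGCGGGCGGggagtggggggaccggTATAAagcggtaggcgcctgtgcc
MUC3A (chr7:100949414-100949533, plus strand): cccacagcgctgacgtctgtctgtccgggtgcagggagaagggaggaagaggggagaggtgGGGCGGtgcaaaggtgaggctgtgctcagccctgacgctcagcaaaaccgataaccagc
MUC4 (chr3:195811930-195812049, minus strand): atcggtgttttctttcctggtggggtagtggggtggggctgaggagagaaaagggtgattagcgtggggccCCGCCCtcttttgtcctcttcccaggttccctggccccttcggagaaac
MUC13 (chr3:124934752-124934871, minus strand): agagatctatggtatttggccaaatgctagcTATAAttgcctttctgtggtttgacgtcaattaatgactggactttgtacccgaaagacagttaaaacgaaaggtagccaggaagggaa
MUC16 (chr19:9065752-9065871, minus strand): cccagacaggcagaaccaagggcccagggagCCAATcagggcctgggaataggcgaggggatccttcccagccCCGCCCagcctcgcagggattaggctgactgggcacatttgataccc
MUC2 (chr11:1074754-1074873, plus strand): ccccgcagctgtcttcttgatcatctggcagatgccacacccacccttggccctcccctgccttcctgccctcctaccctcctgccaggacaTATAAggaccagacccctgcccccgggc
TATAA lay 24 bases before the start of *MUC1*, 28 bases before that of *MUC2* and 89 bases before that of *MUC13*. They occur in the 250 bases before the start in 18.9% of 35116 RefSeq promoters, GGGCGG in 42.6%, CCAAT in 32.0% and CACCTG in 17.5%. The *MUC1* stretch held 4 copies of GGGCGG, some of which overlap, and 2 of CACCTG, the *MUC3A*, *MUC4* and *MUC16* stretches 1 GGGCGG each, and the *MUC16* stretch 1 CCAAT. In the rest of the 250 bases, to which the shares refer, CCAAT also lay 134 bases before the start of *MUC2* and 187 bases before that of *MUC3A*. Neither AGATAA nor TGTTTAC, the other motifs searched, was found in the 250 bases of any of the 6 genes, which says only that these letters are not in this window. The RefSeq starts of *MUC13*, *MUC16* and *MUC4* lie 19068, 55361 and 44 bases from those of the GENCODE genes used below, and those of *MUC1* and *MUC2* 1 base from them, while the starts of *MUC3A* are the same. All 120 bases shown for *MUC13*, 44 of those for *MUC4* and 1 of those for *MUC1* lie within the GENCODE gene.

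The labelled origin of the cells was checked first. Of 6 ductal epithelial markers, all 6 averaged at least 1 TPM in every group except Panc1 Holoclone cells, in which *CDH1*, the gene of E-cadherin, averaged 0.99 TPM. *KRT8*, *KRT18* and *KRT19* averaged at least 222 TPM in every group. The other markers were far lower in Panc1. The group means of *KRT7* were 10.9 to 14.7 TPM in Panc1 and 1147 to 2398 TPM in Panc89. *CDH1* averaged at most 2.84 TPM against at least 75.3 TPM, and *EPCAM* at most 29.2 TPM against at least 178 TPM. *VIM*, the mesenchymal filament gene, averaged between 2465 and 4318 TPM in the Panc1 groups and at most 0.361 TPM in the Panc89 groups. *ZEB1* averaged between 14.2 and 17.2 TPM in the Panc1 groups and at most 1.47 TPM, in Paraclone cells, in Panc89. The mesenchymal marker *CDH2* did not separate the lines. It averaged 4.67, 13.8 and 1.38 TPM in parental, Holoclone and Paraclone cells of Panc1. In those of Panc89 it averaged 3.10, 8.32 and 4.06 TPM. Fibroblast markers (0 of 3) and acinar markers (0 of 3) reached 1 TPM in no group. Of 3 endothelial markers, *PECAM1* averaged 60.1 TPM in parental Panc89, 4.54 TPM in Panc89 Paraclone and 0.856 TPM in Panc89 Holoclone cells, *CDH5* 3.78, 1.59 and 0.392 TPM, and *VWF* at most 0.235 TPM. Among the leukocyte markers only *CD68* reached 1 TPM. Of 3 goblet cell markers the Panc89 groups had only *SPDEF*, which averaged 2.30, 0.468 and 1.19 TPM in parental, Holoclone and Paraclone cells of Panc1. The goblet marker *FCGBP* went the other way, at 0.802, 2.39 and 1.44 TPM in these Panc1 groups and at most 0.0804 TPM in the Panc89 groups. The goblet marker *CLCA1* was at or near 0 in all groups. Between 12932 and 14199 genes per library reached 1 TPM, mitochondrial genes took 5.62% to 9.44% of the TPM, and since the values carry no counts, the depth is unknown.

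Panc1 and Panc89 cells differed first in how many mucins they made. Summed over the 10 genes, mucin mRNA was 52.5 ± 6.46 TPM (SD, n = 3) in parental Panc1, 47.5 ± 2.90 TPM in Panc1 Holoclone and 26.1 ± 5.16 TPM in Panc1 Paraclone cells. In Panc89 it was 220.1 ± 50.7 TPM in parental, 75.7 ± 3.16 TPM in Holoclone and 151 ± 37.6 TPM in Paraclone cells. The libraries of the Panc89 groups did not overlap with any Panc1 library in this sum, and within Panc89 only the parental and Paraclone libraries overlapped, with 162 to 252 TPM and 111 to 186 TPM. In bulk RNA, fewer cells that express a gene and less RNA per cell cannot be told apart.

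The make-up of this mRNA also differed. In parental Panc1 cells *MUC1* held 58.0% of it and *MUC3A* 41.3%, and in the Panc1 clones these genes again held nearly all of it. In parental Panc89 cells *MUC1* held 34.6%, *MUC20* 24.8% and *MUC5B* 16.9%. Panc89 Holoclone cells were dominated by *MUC20* with 62.4% and *MUC2* with 16.0%, and *MUC1* held only 6.63%. In Panc89 Paraclone cells *MUC1* held 44.7%, *MUC2* 16.7% and *MUC4* 16.2%. The gel-forming genes together summed to 50.4 ± 3.88 TPM in parental Panc89, 30.7 ± 16.6 TPM in Panc89 Paraclone and 12.5 ± 2.00 TPM in Panc89 Holoclone cells, and to at most 0.456 TPM in any Panc1 library.

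**Figure D1:**
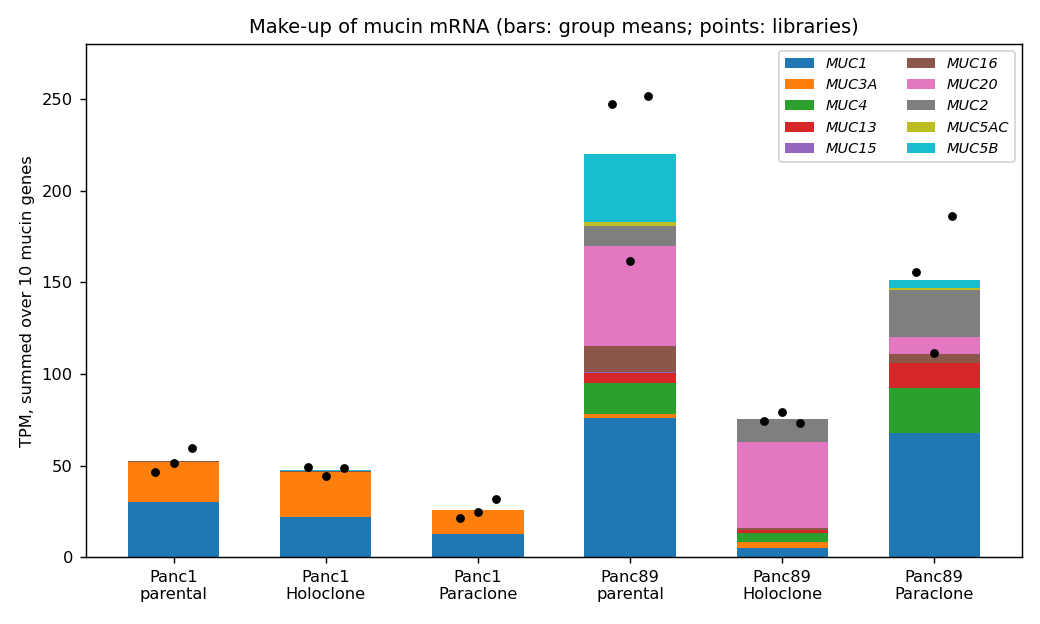
Summed level of the 10 mucin genes in TPM (y axis, linear from 0) in the 6 groups (x axis). Bars stack the group means of the genes and black points are the sums of the 3 libraries of each group; the 3 Panc1 groups consist of *MUC1* and *MUC3A* almost alone and lie under 60 TPM, while the Panc89 groups hold several mucins and lie above 73 TPM.

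The first comparison, of parental Panc89 with parental Panc1 cells, asked how the epithelial and the mesenchymal-like line differ. Of the 9 tested mucins 8 were higher in Panc89, where 27.5% of all tested genes were, and 1 was lower, where 38.5% were. Of these 8 genes, 7 were under 1 TPM in every Panc1 library and had passed the filter through Panc89 alone, so that the filter left them room to differ in this direction only, and nothing is read from the count. *MUC1* and *MUC3A* also reached 1 TPM in Panc1. The median log2 fold change over all tested genes was −0.18, which scaling by median of ratios moved to 0.0190.

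Of the membrane mucins, *MUC1* was the only one with more than 1 TPM in all 6 groups. The gene lies on chromosome 1 (GRCh38, 155185824 to 155192916, minus strand), and its product is the best known surface mucin of ducts. In parental Panc89 its libraries were at 82.4, 55.3 and 90.7 TPM, in parental Panc1 at 23.3, 34.5 and 33.6 TPM. All Panc89 libraries thus lay above all Panc1 libraries, with a 2.50-fold difference of the means (log2 fold change 1.28, SE 0.181, adjusted p = 1.3e-05, limma-trend).

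*MUC3A*, an intestinal membrane mucin on chromosome 7 (100949534 to 100968347, plus strand), went the other way. It was at 23.2, 16.5 and 25.4 TPM in parental Panc1 and at 2.77, 1.66 and 2.33 TPM in parental Panc89 cells, so that no library overlapped. It was 9.63-fold lower in Panc89 (log2 fold change −2.80, SE 0.224, adjusted p = 2.18e-08). Its neighbour *MUC12*, a mucin outside the 10 that begins just after its end, was at 4.39, 5.04 and 5.56 TPM in parental Panc1 and at most at 0.227 TPM in any Panc89 library. The genes are alike in sequence, reads could be divided between them, and the value of either is therefore uncertain.

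The other membrane mucins were near 0 in Panc1. *MUC4*, a mucin that binds the receptor ERBB2 and lies on chromosome 3 (195746765 to 195811973, minus strand), was at 20.9, 9.98 and 19.9 TPM in parental Panc89 and at most at 0.071 TPM in any Panc1 library. *MUC16*, which carries the CA125 antigen and binds mesothelin (chromosome 19, 8848844 to 9010390, minus strand), was at 14.5, 12.0 and 15.0 TPM against 0.114, 0.114 and 0.187 TPM. *MUC13*, a mucin of the gut surface (chromosome 3, 124905442 to 124953819, minus strand), was at 6.17, 4.03 and 5.59 TPM against at most 0.0709 TPM in Panc1. For each of these genes the lines were clearly apart, with log2 fold changes of 4.02 for *MUC4*, 3.70 for *MUC16* and 2.62 for *MUC13*.

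*MUC20* had the largest value of the 9 tested mucins on the log2(TPM + 1) scale. Its product binds the receptor MET, and the gene lies on chromosome 3 (195720884 to 195741123, plus strand), beside *MUC4*. It was at 67.9, 32.1 and 63.6 TPM in parental Panc89 and at most at 0.432 TPM in the Panc1 libraries, which gave 5.57 on the log2 scale (SE 0.341, adjusted p = 8.95e-10). The long noncoding RNA gene *MUC20-OT1* overlaps it on the same strand, and the pseudogene *MUC20P1* resembles it, so that *MUC20* is uncertain too. *MUC20-OT1* was also higher in Panc89, with a log2 fold change of 1.89, and *MUC20P1* was listed at 0 in all Panc1 libraries and lay between 0.65 and 3.57 TPM in the Panc89 libraries. *MUC15* stayed under the filter: parental Panc89 libraries were at 0.901, 0.388 and 1.08 TPM, Panc89 Holoclone libraries at 0.0484, 0.0714 and 0.162 TPM, and Panc89 Paraclone and Panc1 libraries at most at 0.031 TPM. With no filter, on 29343 genes, it was called higher in parental Panc89 than in parental Panc1 cells, at 0.81 on the log2 scale (adjusted p = 1.138e-05), and lower than in parental cells in Panc89 Holoclone and Paraclone cells, at −0.69 and −0.815 (adjusted p = 0.0002837 and 0.0001159). The gene lies within *ANO3* on the opposite strand, and *ANO3* was at most at 0.781 TPM.

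The gel-forming mucins, which lie next to each other on chromosome 11, were all called higher in parental Panc89 cells. *MUC5B*, a main mucin of airway and duct glands (1223066 to 1262172, plus strand), was at 37.9, 33.8 and 40.3 TPM, *MUC2*, the mucin of intestinal goblet cells (1074875 to 1110511, plus strand), at 11.8, 10.1 and 11.1 TPM, and *MUC5AC*, the mucin of the stomach surface (1157953 to 1201138, plus strand), at 1.90, 2.16 and 2.13 TPM. In parental Panc1 cells none of the 3 genes averaged over 0.0277 TPM. The log2 fold changes were 5.22 for *MUC5B*, 3.57 for *MUC2* and 1.59 for *MUC5AC* (adjusted p = 2.98e-11, 2.72e-07 and 1.09e-07). *MUC5B-AS1*, which runs opposite to *MUC5B*, was listed at 0 in every library.

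**Figure D2:**
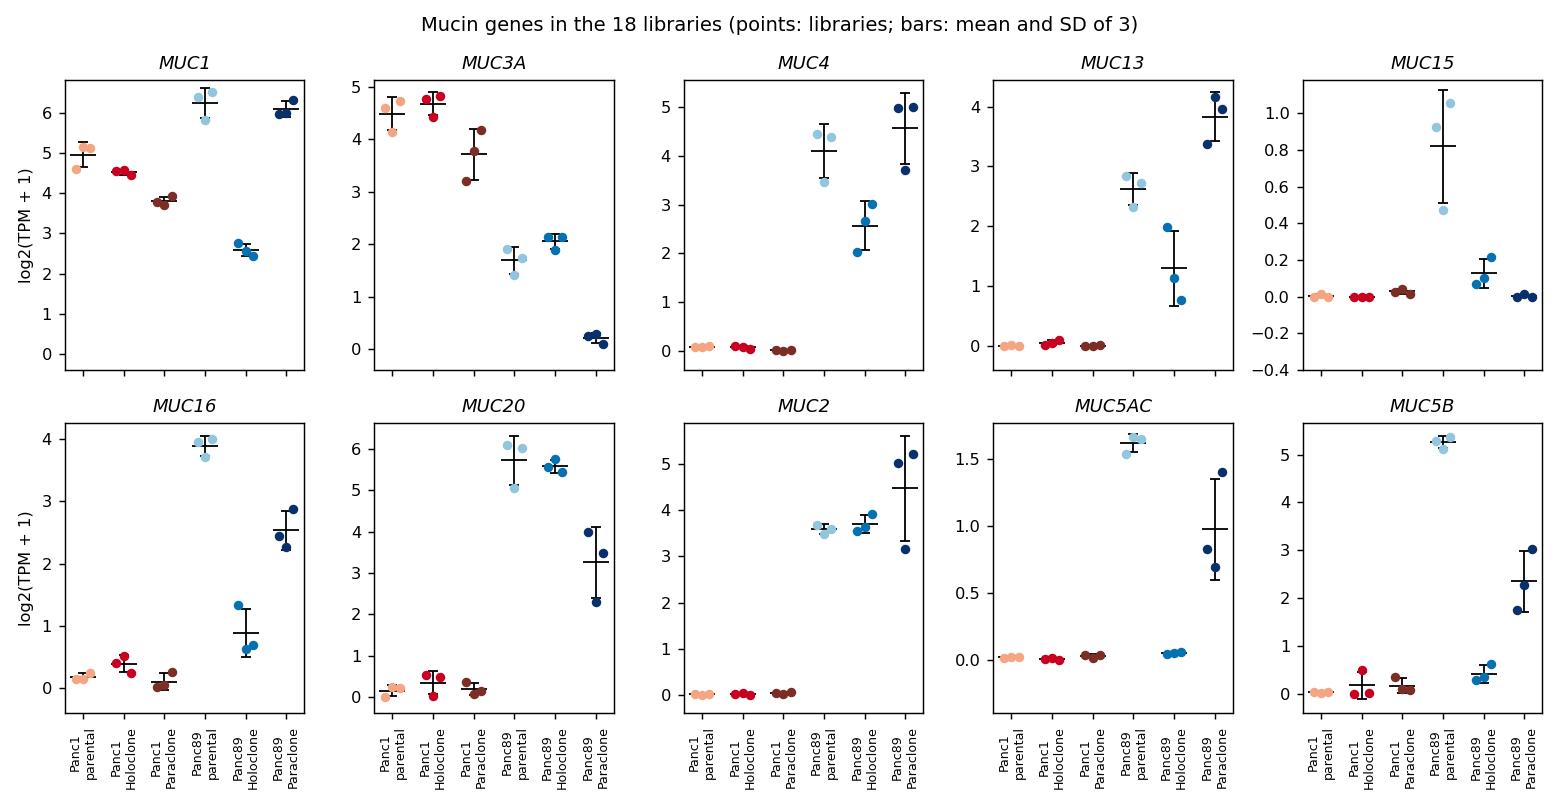
Level of each of the 10 mucin genes as log2(TPM + 1) (y axis, a scale of its own in each panel) in the 18 libraries by group (x axis). Points are libraries, black bars the mean and SD of 3 replicates; only *MUC1* and *MUC3A* stand clearly above 0 in the Panc1 groups, and *MUC1* is lowest in Panc89 Holoclone cells, at 4.44 to 5.73 TPM.

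The difference between the lines was not the same in the clones. Between Holoclone cells, 5 mucins were higher in Panc89 (29.3% of all genes) and 2 were lower (36.4%), where the median over all genes was −0.11. The 5 are again among the genes that passed the filter through Panc89 alone. *MUC16* was at 0.49 (adjusted p = 0.0331, limma-trend). It lost its call without Panc1 Holoclone replicate 1 (0.50, adjusted p = 0.0638) or 3 (0.42, adjusted p = 0.109) or Panc89 Holoclone replicate 1 (0.27, adjusted p = 0.187). The call was also lost with no filter (adjusted p = 0.0566), with the groups compared alone (adjusted p = 0.0829) and with an absolute log2 fold change over 1. *MUC1* was here lower in Panc89, 4.38-fold, at −1.94 on the log2 scale (SE 0.181, adjusted p = 1.32e-07), and *MUC3A* was 7.81-fold lower. *MUC5B*, at 0.224, 0.275 and 0.552 TPM in Panc89 Holoclone cells, overlapped with Panc1 Holoclone libraries, and its log2 fold change of 0.24 was not called (95% interval −0.27 to 0.75, adjusted p = 0.394). *MUC5AC* had a value of 0.05 (adjusted p = 0.801). Between Paraclone cells, 8 mucins were higher in Panc89 (30.2% of all genes) and 1, *MUC3A*, was lower (30.4%), where all genes had a median of −0.003. Of the 8, 7 are those under 1 TPM in every Panc1 library, with the limit given above. There *MUC1* was 5.20-fold higher in Panc89 (log2 fold change 2.29, adjusted p = 2.13e-08).

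The next comparison was that of Holoclone and Paraclone cells within each line. In Panc89, 6 of the 9 tested mucins were lower in Holoclone cells (*MUC1*, *MUC4*, *MUC13*, *MUC16*, *MUC5AC* and *MUC5B*), where 13.3% of all genes were, and 2 were higher (*MUC3A* and *MUC20*), where 22.4% were. Over the 9 genes the median log2 fold change was −1.64, against 0.09 over all genes. In Panc1, 2 mucins, *MUC1* and *MUC3A*, were higher in Holoclone cells, where 27.4% of all genes were, and 0 were lower, where 9.97% were. The median there was 0.07, against 0.19 over all genes. The count of 0 was the same at an unadjusted p under 0.05 in limma-trend. However, 7 of the 9 mucins were under 1 TPM in every Panc1 library and had little room to differ there. Nothing is therefore read from the Panc1 counts and median beyond *MUC1* and *MUC3A*.

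*MUC1* had the largest difference between the Panc89 clones on the log2(TPM + 1) scale. Panc89 Holoclone libraries were at 5.73, 4.88 and 4.44 TPM and Panc89 Paraclone libraries at 61.6, 62.2 and 79.1 TPM. This was a 13.5-fold lower level in Holoclone cells (log2 fold change −3.51, SE 0.181, adjusted p = 1.15e-09). Panc89 Holoclone cells had less *MUC1* than any other group of either line, below the Panc1 Paraclone libraries at 12.7, 12.1 and 14.2 TPM. In Panc1 the direction was the opposite: Holoclone libraries, at 22.3, 22.8 and 20.8 TPM, were all above the Paraclone libraries, by 1.69-fold (log2 fold change 0.72, SE 0.181, adjusted p = 0.00553). This Panc1 call depended on the scaling: with upper quartile scaling, which moved the median of all genes from 0.19 to 0.0068, the value was 0.48 (adjusted p = 0.0517), and with median-of-ratios scaling 0.45 (adjusted p = 0.0646).

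*MUC13* and *MUC4* were also lower in Panc89 Holoclone than in Panc89 Paraclone cells. *MUC13* was at 2.96, 1.20 and 0.706 TPM in Holoclone and at 9.39, 16.8 and 14.6 TPM in Paraclone libraries, 8.37-fold lower (log2 fold change −2.53, SE 0.252, adjusted p = 1.59e-06). *MUC4* was at 3.09, 5.33 and 7.08 TPM against 30.5, 12.1 and 31.0 TPM, 4.75-fold lower (−1.99, SE 0.324, adjusted p = 0.000192). In neither gene did the groups overlap, although Paraclone replicate 2 had clearly less *MUC4* than the other Paraclone libraries. *MUC16* was at 1.53, 0.552 and 0.615 TPM against 4.46, 3.81 and 6.35 TPM, again without overlap (−1.64, adjusted p = 8.25e-06).

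*MUC20* and *MUC3A* were the mucins with more mRNA in Panc89 Holoclone cells. *MUC20* was at 46.5, 52.9 and 42.3 TPM there and at 14.9, 3.91 and 10.1 TPM in Paraclone cells, 4.90-fold higher (log2 fold change 2.33, SE 0.341, adjusted p = 7.36e-05). *MUC20-OT1*, whose gene overlaps *MUC20* on the same strand, differed in the other direction, with a log2 fold change of −0.67 (adjusted p = 0.0243), while *MUC20P1* had 0.59 (adjusted p = 0.0133). *MUC3A* was at 3.39, 2.69 and 3.41 TPM in Holoclone libraries against 0.187, 0.226 and 0.0731 TPM (log2 fold change 1.84, adjusted p = 1.24e-05). It was also higher in the Holoclone cells of Panc1, at 26.3, 20.4 and 27.4 TPM against 8.21, 12.6 and 17.0 TPM, by 1.96-fold (0.96, SE 0.224, adjusted p = 0.00319). *MUC3A* was thus the mucin called in the same direction in both lines, with the doubt about shared reads given above.

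Of the gel-forming mucins, *MUC5B* and *MUC5AC* were lower in Panc89 Holoclone cells. *MUC5B* was at 2.38, 3.82 and 7.16 TPM in Paraclone libraries, above the Holoclone libraries given above, with a log2 fold change of −1.93 (adjusted p = 1.62e-05). *MUC5AC* was at 0.0325, 0.0382 and 0.0396 TPM against 0.776, 0.617 and 1.64 TPM, a log2 fold change of −0.92 (adjusted p = 0.000154) at very low levels. *MUC2* was the exception and was not called: Holoclone libraries were at 10.8, 11.4 and 14.2 TPM, Paraclone libraries at 31.7, 7.96 and 36.1 TPM, and the groups overlapped (−0.76, 95% interval −1.52 to −0.01, adjusted p = 0.109). Paraclone replicate 2 decided this. Without it the value was −1.42 (adjusted p = 1.41e-06), and *MUC2* would be called lower in Holoclone cells.

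**Figure D3:**
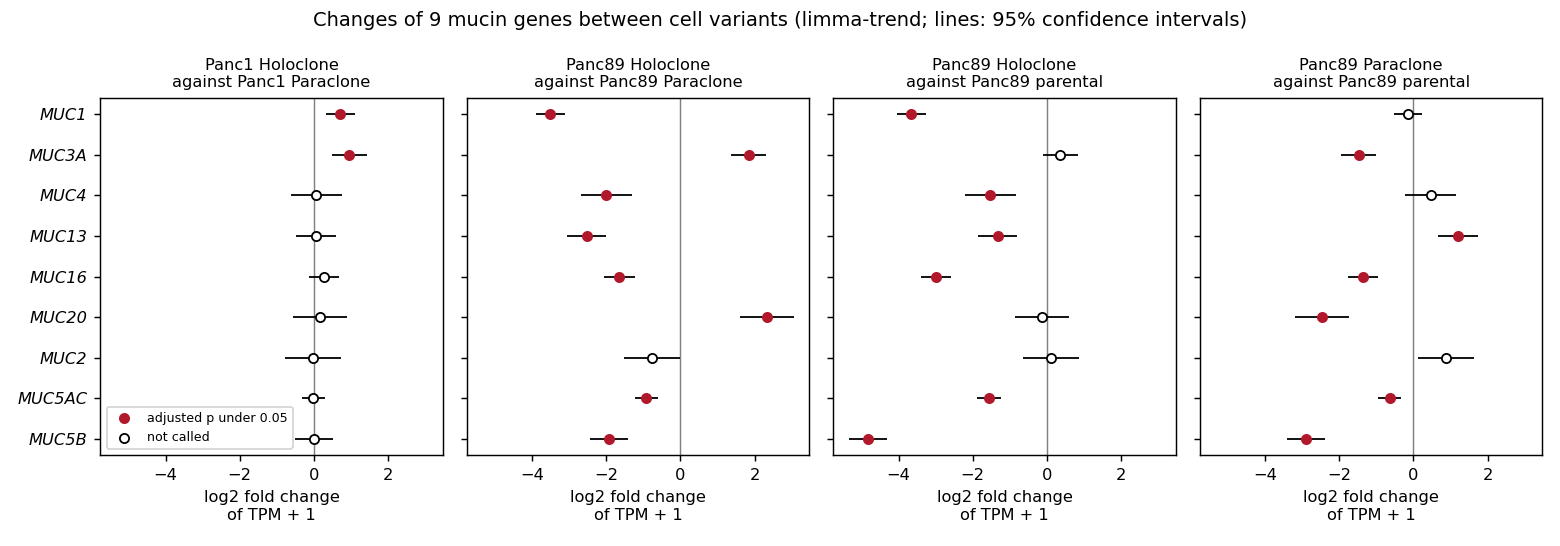
Log2 fold change of TPM + 1 (x axis) of the 9 tested mucin genes (y axis) in 4 comparisons of cell variants. Points are limma-trend estimates with their 95% confidence intervals, filled where the adjusted p was under 0.05; in Panc89 Holoclone cells *MUC1* lies at −3.51 against Paraclone and at −3.65 against parental cells, while in Panc1 only *MUC1* and *MUC3A*, at 0.72 and 0.96, are called.

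The log2 fold change of Holoclone against Paraclone cells was then compared between the lines by an interaction term. It was lower in Panc89 than in Panc1 for 6 mucins, where it was for 20.4% of all genes, and higher for 2, where it was for 14.8%. The median difference of the 9 genes was −1.93, against −0.11 over all genes. *MUC1* had the largest on this scale, at −4.22 (SE 0.256, adjusted p = 9.93e-09), since its directions were opposite in the lines. *MUC4*, *MUC13*, *MUC16*, *MUC5AC*, *MUC5B* and *MUC20* were under 1 TPM in both Panc1 clones, so that their differences, from −2.58 for *MUC13* to 2.18 for *MUC20*, rest on Panc89. *MUC3A* was at 0.88 with an adjusted p of 0.0414, a call that was lost without Panc1 Holoclone replicate 1 or 2, Panc1 Paraclone replicate 2 or 3, Panc89 Holoclone replicate 1 or 3, or Panc89 Paraclone replicate 1 or 3 (adjusted p from 0.0549 to 0.111). *MUC2* was at −0.74 (adjusted p = 0.281) and, without Panc89 Paraclone replicate 2, at −1.39 (adjusted p = 3.14e-05).

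Each clone was also set against its parental cells. The parental libraries serve both comparisons, which are therefore not independent of each other. In Panc89 Holoclone cells 6 mucins were lower than in parental cells, where 8.61% of all genes were, and 0 were higher, where 16.1% were, also at an unadjusted p under 0.05. The median was −1.53, against 0.08 over all genes. In Panc89 Paraclone cells 5 were lower (10% of all genes) and 1 was higher (9.37%), with a median of −0.64 against −0.02.

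Most of the Panc89 mucins were thus below parental level in at least 1 clone. *MUC5B* was lower in both, by 8.37-fold in Paraclone cells (log2 fold change −2.90, adjusted p = 7.13e-07) and with a log2 fold change of −4.83 (adjusted p = 1.65e-09) in Holoclone cells. *MUC16* likewise had −1.36 in Paraclone and −3.00 in Holoclone cells (adjusted p = 0.000128 and 2.39e-08), and *MUC5AC* −0.64 and −1.56 (adjusted p = 0.00548 and 1.59e-06). For these genes the libraries of the 3 Panc89 groups did not overlap, in the order parental, Paraclone, Holoclone. The endothelial marker *PECAM1* had the same order of group means, as given above, and *VWF* was near 0 in all groups; the part of endothelial genes in these mucins was not tested.

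Other mucins were called against parental cells in 1 of the clones, and the clones themselves were compared above. *MUC1* was 15.2-fold lower in Panc89 Holoclone cells (log2 fold change −3.65, SE 0.181, adjusted p = 1.58e-09) and overlapped with parental cells in Paraclone cells (−0.15, adjusted p = 0.642). *MUC4* was 3.27-fold lower in Holoclone cells (−1.53, adjusted p = 0.00259). In Paraclone cells it had 0.47 (adjusted p = 0.365), which without Paraclone replicate 2 became 0.89 (adjusted p = 0.0273). *MUC20* showed the reverse: it was 5.66-fold lower in Paraclone cells (−2.47, adjusted p = 0.000106), and its Holoclone libraries lay among the parental ones (−0.14, 95% interval −0.86 to 0.59, adjusted p = 0.842). *MUC3A* was also lower in Paraclone cells (−1.47, adjusted p = 0.000234), with a value of 0.36 in Holoclone cells (adjusted p = 0.27).

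*MUC13* was the mucin called in opposite directions in the Panc89 clones. It was 3.24-fold lower in Holoclone cells (log2 fold change −1.33, SE 0.252, adjusted p = 0.00108) and 2.58-fold higher in Paraclone cells (1.20, SE 0.252, adjusted p = 0.00301), with no overlap of libraries in either case. *MUC2* was called in neither clone, at 0.12 (adjusted p = 0.872) in Holoclone and 0.88 (adjusted p = 0.0984) in Paraclone cells. Without Paraclone replicate 2 the Paraclone value was 1.54 (adjusted p = 1.78e-06). Parental replicate 2 was the lowest of its group in 8 of the 9 mucins that averaged at least 1 TPM there, and Paraclone replicate 2 in 5 of 8.

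In Panc1 no mucin was called between Holoclone and parental cells, 0 higher and 0 lower, where 5.87% and 5.06% of all genes were called in limma-trend. At an unadjusted p under 0.05, 1 mucin, *MUC1*, was lower (log2 fold change −0.43, adjusted p = 0.154). The medians were 0.05 for the mucins and 0.01 for all genes. Of the 9 tested mucins, 7 were under 1 TPM in every Panc1 library and had little room to differ. Nothing is therefore read from these counts and medians, or from the counts in Panc1 Paraclone cells, beyond *MUC1* and *MUC3A*. In Panc1 Paraclone cells 2 mucins were lower than in parental cells (21.3% of all genes) and 0 were higher (7.31%), also at an unadjusted p under 0.05. *MUC1* was 2.34-fold lower (−1.15, SE 0.181, adjusted p = 0.000239), without overlap. *MUC3A* was 1.72-fold lower (−0.77, SE 0.224, adjusted p = 0.0179), but its libraries overlapped and the call was lost with either other scaling and without parental replicate 1 or 3 or Paraclone replicate 1, where the value was −0.51 at its smallest.

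The enzymes, regulators and partners of mucins were followed in lists. O-glycans are begun by the GALNT enzymes and extended by others such as GCNT3, FUT2, FUT3 and B3GNT3. Between the parental lines, 9 of 11 tested extension genes were higher in Panc89 and 2 were lower, where 27.5% and 38.5% of all genes were, with a median log2 fold change of 4.01 against −0.18. Of the 9, 5 were under 1 TPM in every Panc1 library and had passed the filter through Panc89 alone. *GCNT3*, which branches the sugar core, was at 60.7 ± 2.77 TPM in parental Panc89 and 0.0872 ± 0.110 TPM in parental Panc1 cells, and *FUT3*, which makes Lewis antigens, at 50.0 ± 2.52 and 0.145 ± 0.131 TPM. Of 12 tested initiation genes 4 were higher and 6 lower, against the same shares. Of the 4, 2 were under 1 TPM in every Panc1 library and had passed the filter through Panc89 alone, *GALNT3* among them. Nothing is read from the counts of the extension and initiation genes. *GALNT3* had a log2 fold change of 5.07 and *GALNT12* 2.01, while *GALNT1* and *GALNT2* had −3.40 and −2.04. The 2 lines thus differed in which *GALNT* genes were high.

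Between the Panc89 clones, 1 of 11 extension genes was higher and 4 were lower in Holoclone cells (median −0.46), where 22.4% of all genes were higher and 13.3% lower (median 0.09). *FUT2*, which makes H antigens, had a log2 fold change of −1.16 and *B3GNT3*, which extends the core, −0.73, with *ST6GALNAC4*, a sialyltransferase, at 0.95. Among 12 initiation genes 4 were higher and 3 lower (median −0.06), with *GALNT14* at 3.03 and *GALNT6* at −1.09. In Panc1 Holoclone against Paraclone cells, 27.4% of all genes were higher and 9.97% lower (median 0.19). There 0 extension genes were higher and 2 lower (median −0.07), with the sialyltransferase *ST3GAL1* at −2.64. Among the initiation genes 4 were higher and 2 lower (median −0.11), with *GALNT7* at 1.03 and *GALNT2* at −0.91. Of the 11 extension genes 5, and of the 12 initiation genes 2, were under 1 TPM in every Panc1 library and had little room to differ. Nothing is therefore read from these Panc1 counts and medians.

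Of 9 tested regulators of mucin genes, 6 were higher and 2 lower in parental Panc89 than in parental Panc1 cells (median 1.06). Of all genes, 27.5% were higher and 38.5% lower (median −0.18). Of the 2 lower regulators, *CREB3L1* was under 1 TPM in every Panc89 library and had passed the filter through Panc1 alone. *SPDEF*, a transcription factor of goblet cells, was at 46.2 ± 2.43 TPM in parental Panc89, 20.0 ± 11.4 TPM in Panc89 Paraclone and 5.26 ± 1.98 TPM in Panc89 Holoclone cells, and at most at 2.30 TPM as a mean in the Panc1 groups. It was lower than in parental cells in both Panc89 clones, with log2 fold changes of −2.96 (adjusted p = 1.557e-05) in Holoclone and −1.32 (adjusted p = 0.0143) in Paraclone cells. This is the order of groups that *MUC5B*, *MUC5AC* and *MUC16* had. Between the Panc89 clones, where 22.4% of all genes were higher and 13.3% lower in Holoclone cells (median 0.09), 4 regulators were higher and 2 lower (median −0.23): *FOXA1*, a factor of endodermal epithelia, was lower at −2.34 and *SPDEF* at −1.64, while *FOXA2*, of the same family as *FOXA1*, was higher at 4.76, from 1.07 ± 0.264 to 56.9 ± 17.8 TPM, and *KLF4* at 1.87. In Panc1 Holoclone against Paraclone cells, 3 were higher and 3 lower (median 0.37), where 27.4% and 9.97% of all genes were (median 0.19), with *KLF4* at −1.77.

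Of 7 tested genes whose products are secreted with mucins or help to fold them, 2 were higher and 3 lower in Panc89 Holoclone than in Panc89 Paraclone cells (median −0.07), where 22.4% of all genes were higher and 13.3% lower (median 0.09). *AGR2*, a disulfide isomerase that gel-forming mucins need for folding, was higher at 5.38 (SE 0.454, adjusted p = 2.69e-07), with 439.6 ± 175 TPM in Holoclone, 123 ± 49.1 TPM in parental and 10.2 ± 5.86 TPM in Paraclone cells. It therefore ran opposite to *MUC5B*, *MUC5AC* and *MUC13* between these clones. *SPINK4*, a goblet cell peptide, was lower at −3.81, and *TFF1*, a trefoil peptide that travels with *MUC5AC*, at −1.74. Of 10 tested surface partners and sheddases, 3 were higher and 4 lower (median 0.10), to be read against the same shares. *MSLN*, the mesothelin that *MUC16* binds, was at 403 ± 119 TPM in Paraclone, 222 ± 14.2 TPM in parental and 88.4 ± 9.36 TPM in Holoclone cells, with a log2 fold change of −2.13 between the clones (adjusted p = 1.06e-06). *ERBB3*, a partner of ERBB2, was lower at −1.35. *MMP14*, a protease that can release *MUC1* from the surface, was higher at 2.16, and *MET*, the receptor bound by *MUC20*, at 0.52.

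**Figure D4:**
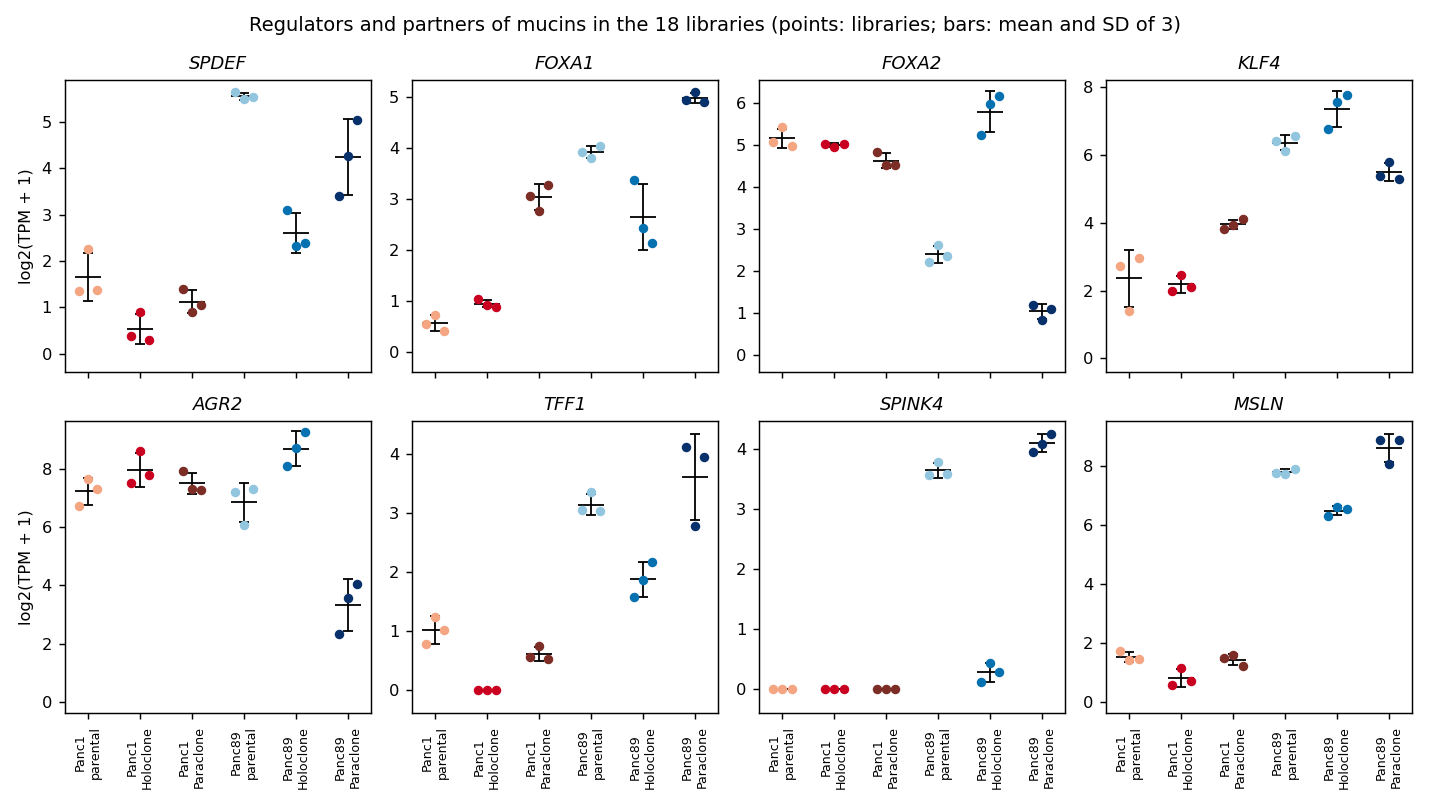
Level of 8 regulators and partners of mucins as log2(TPM + 1) (y axis, a scale of its own in each panel) in the 18 libraries by group (x axis). Points are libraries, black bars the mean and SD of 3 replicates; in Panc89, *SPDEF* runs from 46.2 TPM in parental to 5.26 TPM in Holoclone cells, and *AGR2* and *FOXA2* are highest in Holoclone and lowest in Paraclone cells.

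Of 5 tested further mucins, 1 was higher and 3 were lower in parental Panc89 than in parental Panc1 cells (median −1.10), where 27.5% and 38.5% of all genes were (median −0.18). Of these, *MUC6* had passed the filter through Panc89 alone and *MUC12* through Panc1 alone, so nothing is read from the count. The gel-forming *MUC6*, beside *MUC2* on chromosome 11, was at 4.11, 1.29 and 4.32 TPM in parental Panc89, at 0.874, 0.31 and 1.9 TPM in Paraclone and at most at 0.0597 TPM in Holoclone cells. *MCAM*, a cell adhesion molecule, and *CD164*, a sialomucin of the cell surface, were lower in Panc89, at −2.22 and −1.10, and *MCAM* was higher in Panc1 Holoclone than in Panc1 Paraclone cells, at 2.37.

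The neighbouring genes of the mucin loci were also compared, and a selection of these comparisons is given. Flanking genes were the 6 nearest tested protein-coding genes of a locus, 3 on each side, with mucins left out. Around the gel-forming mucins on chromosome 11, all 6 were lower in parental Panc89 than in parental Panc1 cells, where 38.5% of all genes were. Their log2 fold changes ran from −2.61 to −1.18. The 3 mucins between them were higher, as was *MUC6* beside *MUC2*, at 1.98. In Panc89 Holoclone against parental cells 4 of the 6 flanking genes were higher, up to 1.02, and 0 were lower, where 16.1% and 8.61% of all genes were. *MUC5B* and *MUC5AC* were lower there, as was *MUC6*, at −1.96. Around *MUC1*, 0 of 6 flanking genes were called between Panc89 Holoclone and Paraclone cells (values from −0.84 to 0.13), where 22.4% of all genes were higher and 13.3% lower, or between Panc89 Holoclone and parental cells (−0.38 to 0.09), where 16.1% and 8.61% were. *MUC20* and *MUC4* lie side by side and had opposite changes between the Panc89 clones. Around them, 2 of 6 flanking genes were higher and 1 was lower in Holoclone cells, against 22.4% and 13.3% of all genes. Between the parental lines, 2 of 6 flanking genes were lower in Panc89 around *MUC3A*, 2 around *MUC13* and 4 around *MUC16*. At these loci 0 were higher, where 38.5% of all genes were lower and 27.5% higher. *MUC3A* itself was lower there, while *MUC13* and *MUC16* were higher. In the difference between the lines, 5 of 6 genes around *MUC13* were lower and 0 were higher, against 20.4% and 14.8% of all genes. *MUC13* was lower there too, but the changes within the lines were unlike. Between the Panc1 clones all 6 flanking genes were higher in Holoclone cells (0.50 to 3.23), where 27.4% of all genes were. *MUC13*, near 0 in Panc1, had 0.05. Between the Panc89 clones 1 of the 6 was lower and 0 were higher, against 13.3% and 22.4% of all genes, and *MUC13* had −2.53.

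As a description, the genes most like each of the 8 mucins that averaged at least 10 TPM in some group, all but *MUC5AC* and *MUC15*, were listed by their levels over the 18 libraries, among the 10914 other tested genes at that level. Libraries of a group share their culture and the lines differ in most genes, so these values reflect few independent points. For *MUC1* they were *PKDCC* (Pearson r = 0.954), *CLIC3* (0.924) and *RHOB* (0.919), the lowest values among the mucins listed. For *MUC5B* they were *DAPK1* (0.990), *LYPD2* (0.989) and *SELPLG* (0.988), for *MUC16* *SULF2* (0.986), *TNFSF9* and *CYP24A1* (both 0.979), and for *MUC2* *AMN* (0.994), *IL1B* (0.991) and *TGFA* (0.990). *MUC4* was most like *IL1RN* (0.990), *FAM83A* and *ADAM28* (both 0.987), *MUC13* like *SERPINB3* (0.985), *LINC02474* (0.980) and *CFI* (0.978), and *MUC20* like *KLK11* (0.988), *LINC01667* (0.987) and *WFDC2* (0.984). *MUC3A* was most like *PPP3CB* (0.988), *CDIP1* (0.984) and *ZNF446* (0.982).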

How the data were processed

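RNA of 3 passages of each of 6 cell variants was measured in 18 libraries. The authors prepared stranded mRNA libraries, quantified transcripts with kallisto 0.46.1 against an Ensembl transcriptome of GRCh38 and summarized them to genes as scaled TPM with tximport; the strand setting of kallisto is not given in the sources used here. The deposited values are log2(TPM + 1), 1 per gene symbol and library, which are not counts, so that depth is unknown, and p-values measure the spread between these passages. Libraries were assigned to groups by their labels.

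The values were fitted with limma 3.58.1 in R 4.3.3 (lmFit and trended eBayes), with 1 coefficient per group, on 16093 genes that reached 1 TPM in 3 or more libraries, after the code was tested on simulated data; p-values are two-sided and Benjamini-Hochberg adjusted over these genes. All 10 mucins are named. From each list the text gives at most the 2 highest and 2 lowest called genes per comparison, if the higher group averaged 10 TPM or more and replicates did not overlap; the further mucins MUC12 and MUC6 and the overlapping genes were chosen after their values were seen. The members and lists were chosen with earlier results of these data known, and the promoter motifs after seeing the sequences. Positions are from GENCODE 44. Alternatives were a pseudocount of 0.1, no filter, a filter of 5 TPM, the groups alone, a replicate block, 2 other scalings, an absolute log2 fold change over 1, no trend and leaving out each library. Same-numbered libraries of a line deviated with correlations from −0.318 to 0.190, so libraries were not paired.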

Additional observations from a re-analysis of the deposited data

Results flagged for a closer look

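The log2 fold change of Holoclone against Paraclone cells differed between the lines, by the interaction term in limma-trend, for 8 of the 9 tested mucins. It was lower in Panc89 for 6 and higher for 2, where 20.4% and 14.8% of all tested genes were. The differences, Panc89 minus Panc1 on the log2(TPM + 1) scale, were −4.22 for *MUC1*, −2.58 for *MUC13*, −2.06 for *MUC4*, −1.93 for *MUC16*, −1.93 for *MUC5B*, −0.90 for *MUC5AC*, 0.88 for *MUC3A* and 2.18 for *MUC20*. All of these genes but *MUC1* and *MUC3A* were under 1 TPM in every Panc1 library and had passed the filter through Panc89 alone. Their differences therefore rest on Panc89, and nothing is read from the count. *MUC1* was called higher in the Holoclone cells of Panc1 and lower in those of Panc89. The Panc1 call was lost with upper quartile scaling (limma-trend adjusted p = 0.0517) and with median-of-ratios scaling (adjusted p = 0.0646). *MUC3A* was higher in Holoclone cells of both lines, with the doubt about shared reads given above. Its difference between the lines depended on single libraries, as given below.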

How the results depend on the processing

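For the mucins, 66 fold changes with at least 1 TPM in a compared group were followed through the alternatives, 56 of them called in limma-trend. Of 1038 alternative values, 1004 kept direction and side of the threshold, 28 lost their call, 4 gained one and 2 turned in direction. The 2 that turned were values of *MUC20* in Panc89 Holoclone against parental cells, which was not called: leaving out each library in turn gave −0.47 to 0.054, above 0 without Panc89 parental replicate 1 (0.054) and replicate 3 (0.0083). *TFF1* turned in the difference between the lines, to 0.59 with a pseudocount of 0.1. Between Panc1 Holoclone and Paraclone cells the 2 called mucins became 1 with upper quartile or median-of-ratios scaling and 0 with an absolute log2 fold change over 1. Between Panc1 Paraclone and parental cells the 2 became 1 with the groups alone, with either scaling, with a fold change over 1, and 1 to 2 with a library left out; the cause was not tested. The *MUC20* difference between the lines lost its call with a pseudocount of 0.1 (1.99, adjusted p = 0.0862), and *MUC5AC* in Panc89 Paraclone against parental cells with the groups alone (adjusted p = 0.0929). The *MUC3A* difference between the lines lost its call without filter, with the groups alone and without any of 8 single libraries (adjusted p up to 0.111). A pseudocount of 0.1 raised fold changes of genes near 0 by over 1.5 times, for example that of *MUC5AC* between the parental lines from 1.59 to 4.25. With the replicate number as a replicate block, each comparison kept its number of called mucins, such as 8 between the Panc89 clones and 2 between the Panc1 clones; libraries matched best with their own number in 11 of 36 cases. With a pseudocount of 0.1, *MUC16*, under 1 TPM in Panc1, was called higher in Panc1 Holoclone than Paraclone cells (1.29, adjusted p = 0.0209). Depth is unknown, so no limit from counting can be given for genes near 0.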
